A study of Mus musculus with 6 samples.

Results

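The interferon-stimulated genes Samd9l, Rtp4, Oasl2, Ifih1, Gbp6 and Epsti1, and Irf9, which encodes a transcription factor of the interferon pathway, were measured in 6 mouse T cell samples. They are 7 of 688 genes that could be named in the series, measured by 8 of 816 named probes. Genes of the interferon-inducible p200 family were left out. They were selected on the contrast between genotypes: a probe had a gene name only if the authors had listed it for a change of over 2-fold with an unadjusted p-value under 0.05 between the 2 genotypes. The difference between genotypes is therefore a description, and counts past a significance threshold only say how the spread between samples bears on it. The same holds for every other named gene, and no p-value of a single gene is given.

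Naive T cells (CD4+, CD62L hi, CD25 -) from the spleens of C57BL/6J mice were either IRF4 -/- (null) or IRF4 +/- (heterozygous), with 3 samples of each genotype. The controls thus carried 1 disrupted copy of Irf4 themselves, and wild-type cells are not part of the comparison. Both groups were grown for 42 h with plate-bound a-CD3 and with a-CD28, IL-6, IL-23, hTGFb, a-IL4 and a-IFNg, a mixture that drives the Th17 programme while antibodies block IL-4 and interferon gamma. The study's design text calls the 3 samples of each genotype biological replicates. The sources used here do not give how the Irf4 allele was made, the age of the animals, or whether each sample was a separate animal or culture. Errors and p-values therefore measure the spread between these samples, and whether that is a spread between animals is not known. RNA from each sample was labelled with Cy5 and hybridised on a 2-colour Agilent array against a Cy3-labelled pool of mouse tissue RNA. Each value below is a log2 ratio of sample to that pool, so that 0 means a level equal to the pool. Levels of different genes cannot be set against each other on this scale.

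Interferons bind cell surface receptors whose kinases phosphorylate STAT proteins. In the type I pathway IRF9 is the DNA-binding subunit of the complex ISGF3, which switches on interferon-stimulated genes through a DNA element called the ISRE. IRF4 belongs to the same protein family as IRF9, is found mainly in lymphocytes and macrophages, and usually binds DNA together with ETS proteins or with BATF and JUN. In T cells it is needed for the differentiation of several effector lineages, Th17 cells among them.

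The 6 interferon-stimulated genes were higher and Irf9 was lower in null cells. The rises lay between 4.36-fold for Ifih1 and 12.1-fold for Gbp6, with a median log2 difference of 2.37 over the 6 genes, and Irf9 was 2.29-fold lower. Over all 7 the median log2 difference was 2.32, against -0.05 over all 22621 genes and unnamed probes tested. In size, their median log2 change was 2.32, against 1.36 over the 688 named genes, which were listed by the same limits. All 7 passed a limma Benjamini-Hochberg adjusted p of 0.05, which 2.44% of all rows did, 1.26% in the direction of higher and 1.17% in that of lower values in null cells. The 3 null and 3 heterozygous values of each of the 7 genes did not overlap, which held for 29.8% of all rows. Since the genes were listed for this same contrast, nothing is read from these counts. In these bulk samples a change in the share of a cell type and a change in RNA per cell cannot be told apart.

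**Figure D1:**
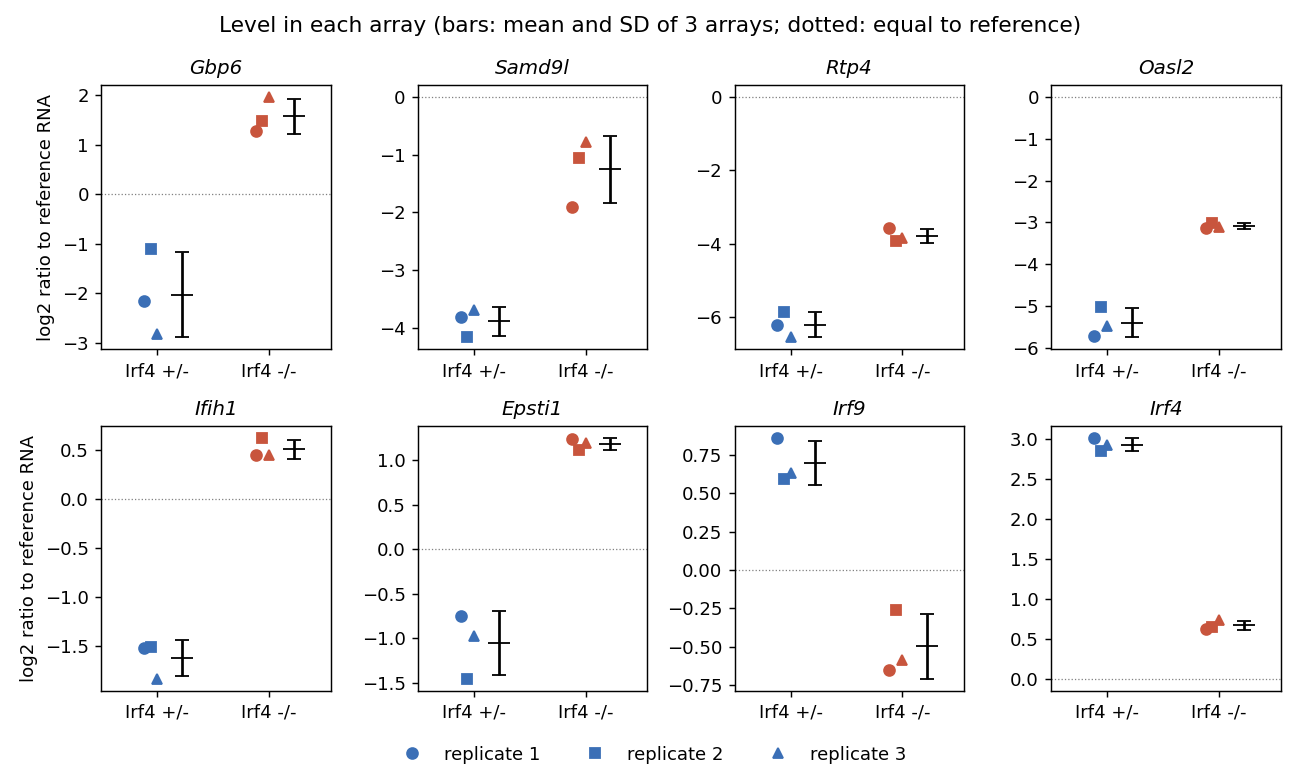
Log2 ratio to reference RNA (vertical axes, each with its own range) in the 3 heterozygous (blue) and 3 null (red) arrays for the 7 genes and for Irf4, with marker shape for the replicate and bars for mean and SD. The dotted line marks a level equal to the reference. Groups do not overlap in any panel, Irf9 and Irf4 are lower in null cells, and the other 6 genes are higher.

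The targeted gene checked the labels. Irf4 had log2 ratios of 0.62, 0.65 and 0.73 in null replicates 1, 2 and 3 and of 3.02, 2.85 and 2.93 in the heterozygous replicates. Its level was thus lower in each null sample, but still above the reference pool. Array quality was uneven in 1 respect: across probes, null replicate 1 correlated with the other null arrays at r = 0.936 and 0.915, below the 0.952 to 0.964 among heterozygous arrays, and 5.28% of its ratios were exactly 0. The arrays of null replicate 3 and the heterozygous samples had r of 0.930 to 0.937, a closer match than the 0.915 between null replicates 1 and 3. Null replicates 2 and 3 correlated more closely, at 0.961. With the heterozygous arrays, null replicate 1 had r of only 0.882 to 0.891. No probe of the 7 genes had a ratio of exactly 0.

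Ifih1 encodes MDA5, a helicase that senses long double-stranded RNA in the cytosol. Its log2 ratio (probe A_51_P387810) was 0.45, 0.62 and 0.44 in null replicates 1 to 3 and -1.52, -1.51 and -1.83 in heterozygous replicates 1 to 3. Null cells lay above the reference and heterozygous cells below it, and the closest pair of samples across genotypes was 3.87-fold apart. Means were 0.50 ± 0.10 in null and -1.62 ± 0.18 in heterozygous cells (SD, n = 3 each), and the log2 difference was 2.12 (SE 0.15, 95% confidence interval 1.77 to 2.48). Of the 7 genes Ifih1 had the smallest standard error.

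The annotated promoter of Ifih1 is shown because it was the only one of those available for the 7 genes with an exact match to the ISRE core GAAANNGAAA. It spans chr2:62646206-62646505 on the minus strand (RefSeq, GRCm38.p6), from 250 bases before the annotated start of the gene to 50 bases from it. The second capital run is the ISRE match, at positions 33 to 42 counted from 1 at the annotated start, within the transcribed part. The first capital run, at positions -107 to -97, is a pair of GAAA on the opposite strand with 1 more base between them.

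Ifih1: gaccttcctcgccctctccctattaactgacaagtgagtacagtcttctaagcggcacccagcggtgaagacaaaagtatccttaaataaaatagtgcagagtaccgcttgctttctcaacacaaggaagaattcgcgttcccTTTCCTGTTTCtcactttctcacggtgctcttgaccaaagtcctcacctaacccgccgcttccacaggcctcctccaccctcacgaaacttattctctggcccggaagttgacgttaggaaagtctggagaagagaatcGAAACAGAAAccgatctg

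The ISRE core, read on both strands, was present in 3.44% of 32851 RefSeq promoters of the same 300 bases. Promoters were listed for 5 of the 7 genes, with a second one for Irf9, and not for Rtp4 and Gbp6. Neither a GAS core (TTCNNNGAA, an element of the interferon gamma response, in 8.30% of all promoters) nor an AP-1 core (TGANTCA, in 7.81%) was found in those of the 5 genes. The composite elements of IRF4 with BATF and JUN, in the spaced form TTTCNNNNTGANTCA (0.119% of all promoters) and the adjoining form GAAATGANTCA (0.125%), both of which contain the AP-1 core, were not found either. The composite element of IRF4 with ETS proteins, GGAANNGAAA, was found once, as GGAACAGAAA on the opposite strand of the Epsti1 promoter at positions -249 to -240, and in 2.72% of all promoters. These are matches of letters in short windows and say nothing about binding.

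Samd9l encodes a cytosolic protein that restrains virus replication and cell growth. Its log2 ratio (probe A_51_P427383) was -1.90, -1.06 and -0.79 in null replicates 1 to 3 and -3.81, -4.17 and -3.69 in heterozygous replicates 1 to 3. All 6 samples lay below the reference, and null replicate 1 was the lowest of its group. The means were -1.25 ± 0.58 and -3.89 ± 0.25 (SD, n = 3 each), a 6.23-fold difference with a 95% confidence interval of 3.67-fold to 10.6-fold. Without null replicate 1 the difference was 7.82-fold.

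The Samd9l promoter (chr6:3399522-3399821, minus strand, RefSeq, GRCm38.p6) is shown because it holds a pair of GAAA like that of Ifih1, at positions 32 to 42, again just inside the transcribed part. Here 3 bases separate the pair, where the ISRE core has 2. This wider form, GAAANNNGAAA, was searched for after these letters had been seen, and 2.75% of all promoters hold it. The capitals mark it.

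Samd9l: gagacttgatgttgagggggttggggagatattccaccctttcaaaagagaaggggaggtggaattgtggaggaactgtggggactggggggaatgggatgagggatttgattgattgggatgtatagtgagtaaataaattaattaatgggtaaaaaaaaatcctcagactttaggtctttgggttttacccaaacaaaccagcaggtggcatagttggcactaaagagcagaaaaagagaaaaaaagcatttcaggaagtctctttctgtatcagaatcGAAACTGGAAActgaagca

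Oasl2 encodes a member of the oligoadenylate synthetase family that carries ubiquitin-like domains. The log2 ratio of its probe, A_51_P387123, was -3.13, -3.00 and -3.11 in the null samples and -5.71, -5.02 and -5.47 in the heterozygous samples. The null samples were nearly level with each other, and all 6 lay well below the reference. The means were -3.08 ± 0.07 and -5.40 ± 0.35 (SD, n = 3 each), with a log2 difference of 2.32 (SE 0.20, 95% confidence interval 1.84 to 2.80).

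Rtp4 encodes an interferon-inducible chaperone of G protein-coupled receptors. Its probe, A_51_P304170, read -3.58, -3.94 and -3.84 in the null samples and -6.21, -5.87 and -6.55 in the heterozygous samples as log2 ratios. It too stayed below the reference in all 6 samples. The means were -3.78 ± 0.19 and -6.21 ± 0.34 (SD, n = 3 each), a 5.37-fold difference with a 95% confidence interval of 3.77-fold to 7.67-fold. No filter on background could be applied to these ratios, so how far the low values of Rtp4, Oasl2 and Samd9l stand above the array background is unknown.

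Gbp6 encodes a guanylate-binding protein, 1 of the large interferon-inducible GTPases that act against pathogens inside the cell. Its log2 ratio (probe A_51_P463846) was 1.28, 1.47 and 1.96 in the null samples and -2.17, -1.11 and -2.82 in the heterozygous samples. Null samples were all above the reference and heterozygous samples all below it, with the widest spread in the heterozygous group, whose replicate 2 was the highest. The means were 1.57 ± 0.35 and -2.03 ± 0.86 (SD, n = 3 each). The 12.1-fold difference was the largest of the 7 genes and ranked 11 among the 327 named genes that were higher in null cells, and its 95% confidence interval ran from 5.71-fold to 25.8-fold. In the RefSeq annotation of GRCm38.p6 Gbp6 lies beside its relative Gbp10, and the probe's sequence was not used here, so signal from related GTPase genes was not tested.

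Epsti1 encodes an interferon-inducible protein first described in human breast tumour cells grown with stroma. It was the 1 gene of the 7 with more than 1 listed probe. Probe A_51_P376050 read 1.47, 1.45 and 1.57 in null samples and -0.23, -0.46 and -0.36 in heterozygous samples. Probe A_52_P582374 read 1.02, 0.78 and 0.81 in null samples and -1.27, -2.45 and -1.58 in heterozygous samples. Both probes were above the reference in null cells and below it in heterozygous cells, and the second spread more among heterozygous samples (SD 0.61 against 0.11, n = 3 each). The first gave a 3.59-fold and the second a 6.22-fold difference, with 95% confidence intervals on the log2 scale of 1.54 to 2.15 and 1.88 to 3.39. Averaged per sample, the probes gave a 4.72-fold difference.

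Irf9, listed under its older symbol Isgf3g, went the other way. Its log2 ratio (probe A_52_P176013) was -0.65, -0.26 and -0.58 in null replicates 1 to 3 and 0.86, 0.59 and 0.63 in heterozygous replicates 1 to 3. Null samples lay below and heterozygous samples above the reference, and the closest pair across genotypes was 1.81-fold apart, the narrowest gap of the 7 genes. The means were -0.50 ± 0.21 and 0.69 ± 0.14 (SD, n = 3 each), with a log2 difference of -1.19 (SE 0.16, 95% confidence interval -1.58 to -0.80). At 2.29-fold Irf9 was also the closest of the 7 to the 2-fold limit that chose them, and it ranked 237 among the 361 named genes that were lower in null cells. Around that limit, the smallest change among listed probes was 2.002-fold and the largest among unlisted probes with an unadjusted p under 0.05 was 1.999-fold.

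The upstream promoter of Irf9 (chr14:55603735-55604034, plus strand, RefSeq, GRCm38.p6) is shown for comparison with the pair above. It held none of the motifs searched, and neither did the second promoter listed for the gene at chr14:55604329-55604628. The promoter of Oasl2, a gene that was higher in null cells, held none of them either. That of Epsti1, also higher in null cells, held neither form of the GAAA pair. Whether these motifs bear on the direction of change was not tested.

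Irf9: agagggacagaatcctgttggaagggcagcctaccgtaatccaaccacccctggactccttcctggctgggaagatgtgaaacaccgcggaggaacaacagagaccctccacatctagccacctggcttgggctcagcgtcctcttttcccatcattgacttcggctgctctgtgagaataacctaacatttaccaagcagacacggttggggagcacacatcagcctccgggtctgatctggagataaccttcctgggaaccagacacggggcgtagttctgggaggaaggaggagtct

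**Figure D2:**
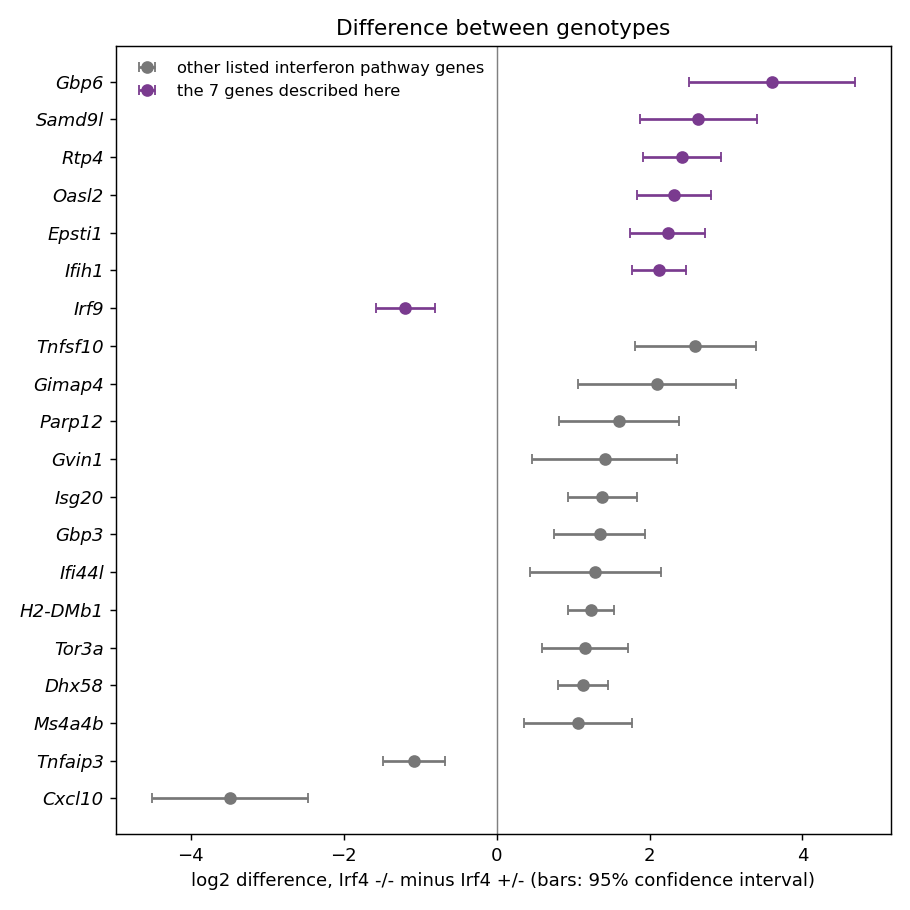
Log2 difference between null and heterozygous cells (horizontal axis, points) with 95% confidence intervals (bars) for the 7 genes described here (purple) and for the other 13 named genes of the interferon lists (grey). Gbp6 has the largest positive and Cxcl10 the largest negative value.

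Other genes of the interferon pathway were read from lists of 170 genes besides the 7 and Irf4. Of these 13 could be named, all of them selected on the same contrast, and 4 rose, 2 fell and 7 did not pass the limma adjusted threshold. The threshold was passed by 2.44% of all rows and by 51.9% of the 688 named genes, of which 189 rose and 168 fell. Listing at over 2-fold fixed the size of the 13 differences in advance, and by sign 11 were positive, against 327 of the 688 named genes. Nothing is read from these counts. Tnfsf10, which encodes the death ligand TRAIL, was the largest rise: its log2 ratio was 2.27, 2.31 and 2.25 in null samples and -0.53, 0.41 and -0.86 in heterozygous samples, a 6.06-fold difference. The exonuclease gene Isg20 rose 2.61-fold and the class II antigen loading gene H2-DMb1 rose 2.35-fold.

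Among 16 nucleic acid sensor and adaptor genes, Ifih1 and Dhx58 could be named and both rose. Dhx58, listed as D11Lgp2e, encodes LGP2, a regulator of MDA5 signalling. Its log2 ratio was -0.33, -0.30 and -0.19 in null samples and -1.43, -1.24 and -1.55 in heterozygous samples, a 2.19-fold difference. Of 20 genes on the list of interferon-inducible GTPases, 4 were named and Gbp6 alone passed. Gbp3, Gimap4 and Gvin1 had positive log2 differences of 1.35, 2.10 and 1.41. Gimap4 belongs to the immunity-associated GTPases, a family not defined by interferon, but was counted with this list. The effector genes that did not pass, Parp12, Ifi44l, Tor3a and Ms4a4b, had log2 differences of 1.60, 1.29, 1.16 and 1.06, all positive as well.

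The falls beside Irf9 were Cxcl10 and Tnfaip3. Cxcl10 encodes a chemokine that is classically induced by interferon gamma, which was blocked in the cultures of both genotypes. Its log2 ratio was -5.43, -6.25 and -6.01 in null samples and -1.60, -3.12 and -2.49 in heterozygous samples. It was thus far below the reference in every null sample, 11.3-fold lower than in heterozygous cells. As for Rtp4, Oasl2 and Samd9l, how far these low values stand above the array background is unknown. The gene for A20, Tnfaip3, which restrains NF-kappaB signalling, was 2.12-fold lower. Of 13 genes for interferon receptors and JAK-STAT signalling only Irf9 could be named, of 11 interferon regulatory factor genes only Irf4 and Irf9, and of 18 interferon genes 0. The levels of the other genes in these lists are therefore not known here. No unlisted probe with an unadjusted p under 0.05 changed by more than 1.999-fold. Apart from listed probes without a symbol, a gene without a name thus had no probe among those measured, or did not meet the authors' limits. Which of these held for each gene was not tested, and no rise of the whole pathway is read from the named genes.

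The 6 higher genes did not share one order of samples within a genotype. In heterozygous replicate 2, Gbp6, Oasl2, Rtp4 and Ifih1 were at their highest of the group, by up to 0.92 above the group mean for Gbp6, while Samd9l and Epsti1 were at their lowest. In null replicate 1, Samd9l lay 0.65 below its group mean and Rtp4 0.21 above. As a description over 6 arrays, the deviations from group means correlated above 0 for 7 of the 15 pairs of these genes, with a median Pearson r of -0.06. Irf9 deviated most in null replicate 2, at 0.24 above its group mean.

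**Figure D3:**
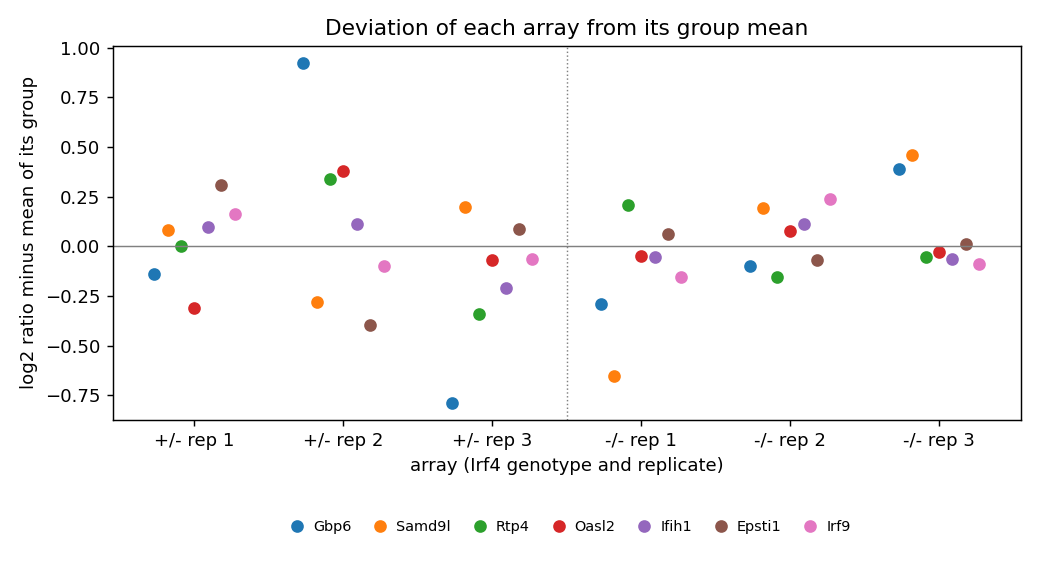
Log2 ratio of each of the 7 genes minus the mean of its group (vertical axis) in each array (horizontal axis, heterozygous left, null right). Points of 1 array scatter on both sides of 0, and the widest deviations are those of Gbp6 in heterozygous replicates 2 and 3, at 0.92 and -0.79.

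Genes with the most similar pattern were ranked over the 6 arrays among 680 other named genes. With only 6 arrays in 2 groups, the genotype difference sets most of this likeness, and 29 genes reached a Pearson r of 0.99 with the mean of the 6 higher genes. The 5 most alike were Lrmp (r = 0.999), Igf2r (0.998), Trim16 (0.997), Dhx58 (0.997) and Apol7c (0.996). For Irf9 the 5 most alike were Ahrr (r = 0.993), Ahnak (0.9905), Glyat (0.988), Nlgn2 (0.988) and Ildr1 (0.987), all lower in null cells. On deviations from group means, the 5 nearest to the mean of the 6 genes were Cd247 (r = 0.967), Bmerb1 (0.964), Dhx58 (0.962), Klrc3 (0.956) and Zfp53 (0.948). Of these Cd247, Bmerb1 and Klrc3 were lower in null cells, opposite to the 6 genes. For Irf9 the 5 nearest were Col5a2, Tcf3, D730045B01Rik, Ap3b2 and Glyat, at 0.953 to 0.881. Col5a2, D730045B01Rik and Ap3b2 were higher in null cells, opposite to Irf9. Removing the group means leaves few free values per gene, so high r is easily reached among 680 genes. The deviations of the 6 genes themselves had a median r of -0.06, and nothing is read from these rankings.

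Leaving out 1 sample kept the direction of each of the 7 genes but not always the call. The number past the limma adjusted threshold was 5 without null replicate 1, 1 without null replicate 2 and 5 without null replicate 3. It was 3, 5 and 2 without heterozygous replicates 1, 2 and 3. Calls also fell over all 22621 rows, from 551 with all 6 samples. They numbered 184, 30 and 239 without null replicates 1, 2 and 3, and 80, 186 and 46 without heterozygous replicates 1, 2 and 3. The lost calls are thus not particular to the 7 genes. Ifih1 passed in 6 of these 6 fits, Rtp4, Oasl2 and Epsti1 in 4, Samd9l in 2, Gbp6 in 1 and Irf9 in 0. The log2 difference ranged from 2.02 to 2.18 for Ifih1, from 3.21 to 4.06 for Gbp6 and from -1.31 to -1.11 for Irf9 over these fits.

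**Figure D4:**
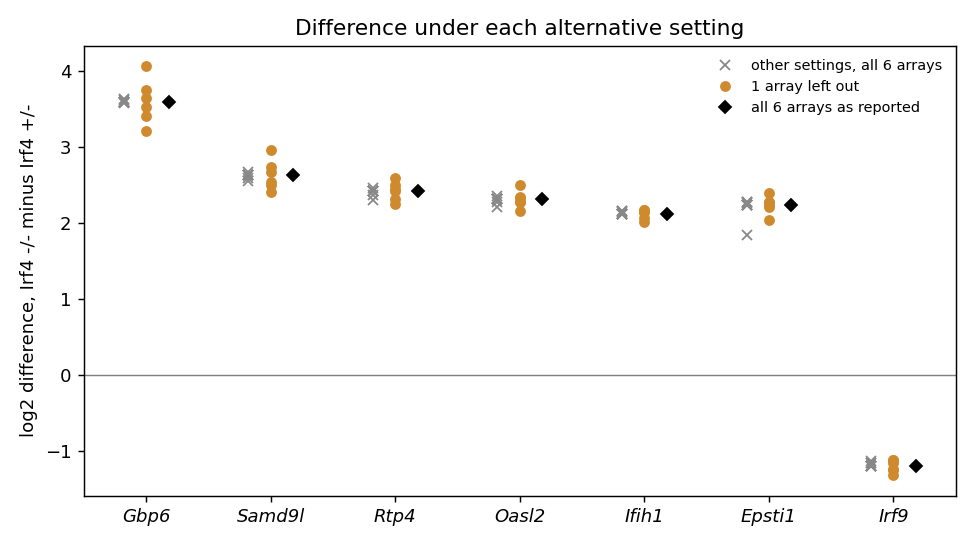
Log2 difference between null and heterozygous cells (vertical axis) for each of the 7 genes with all 6 arrays (diamonds), with 1 array left out (circles) and under the other settings (crosses). Values stay on 1 side of 0 for each gene, with the widest range for Gbp6 and an outlying cross at 1.84 for Epsti1, which is its less changed probe taken alone.

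The labelled cell type could be checked only in part, since gene names were limited to listed probes. These were listed for this same contrast, and the limma adjusted threshold was passed by 51.9% of the 688 named genes and 2.44% of all rows. Nothing is therefore read from the number of markers that passed. Of 10 T cell markers Cd28 alone was named. Of 10 Th17 markers 5 were named, and Il22 and Il21 lay far above the reference in both genotypes. Their mean log2 ratios were 8.39 and 9.62 in heterozygous cells and 5.11 and 6.63 in null cells. Il22 alone of the 5 passed, at 9.70-fold lower in null cells. The log2 differences of Il21, Ccr6 and Il23r were -2.99, -2.45 and -1.59, and that of Il1r1 was 1.09, in the other direction. Of 42 markers of other cell types 7 were named and 5 passed, in both directions. Those higher in null cells were H2-DMb1 (dendritic cells), Tcf4 (plasmacytoid dendritic cells) and Sdc1 (plasma cells), with log2 differences of 1.23, 1.17 and 1.39, and those lower were Cd86 (dendritic cells) and Klre1 (NK cells), with -2.45 and -3.57. The other named markers of these lists did not pass: Itgax (dendritic cells) had a log2 difference of -1.32, and Eomes (NK cells) one of 1.41, opposite in sign to Klre1. The dendritic cell markers likewise differed in sign among themselves. The part of these cell types in the interferon-stimulated genes' difference was not tested.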

How the data were processed

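The authors deposited normalized log2 ratios (Cy5 sample over Cy3 reference) of 22749 probes on 6 arrays, with dyes per the labels and the word normalized per the file headers, neither of which says how. The submitters' processing notes name Agilent Feature Extraction 10.7 and Partek. The authors' deposited table gives p-values and signed fold changes for 828 probes from a 1-way comparison in Partek Genomic Suite 6.6, per the file headers; its folds matched differences of group means within 1.03e-05 on the log2 scale. Its symbols, updated through a RefSeq gene table, named 688 genes. Listed probes of 1 gene were averaged, leaving 22621 rows, which were compared with limma 3.58.1 (lmFit, eBayes) in R 4.3.3 without covariates or further scaling and adjusted by Benjamini-Hochberg, with a threshold of 0.05. The fit was tested on simulated data. The genes and lists were chosen with earlier results of these data known. Named genes are the 7, Irf4, every named gene of the interferon lists, the 5 most alike by Pearson r, and cell type markers past the threshold or used to check the label; the number of arrays limits precision. Intensities, background flags and scan batches were not used here. Same-numbered samples were not treated as pairs, since their deviations correlated at 0.097, -0.012 and -0.037. Alternatives covered scaling, variance model, exact zeros, probe averaging, threshold, replicate block and left-out samples.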

Additional observations from a re-analysis of the deposited data

How the results depend on the processing

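The 7 genes kept their direction under each of 15 alternatives that gave a value. Of 105 such values 30 lost the threshold. Of these, 21 were among the 42 with 1 sample left out and 7 came with the replicate block. A further 2 (Gbp6 and Samd9l) came with an ordinary t-test, and 0 under the other settings. That t-test was held to a Benjamini-Hochberg adjusted p under 0.05, unlike the authors' limit of an unadjusted p under 0.05, which both genes met. With the replicate block 0 of the 7 passed and 13 of all rows did, against 551 without it. No clear pairing was seen, so a call lost there is not read as a weaker effect. All rows past the threshold numbered 1296 at an adjusted p under 0.1 and 30 to 239 with 1 sample left out, where 1 to 5 of the 7 passed. Of 551 calls 286 were higher and 265 lower in null cells, against 292 and 191 after median centring, 264 and 188 after quantile normalization, and 229 and 156 after scaling to 1 spread. The cause of these shifts was not tested. With 3 samples a group, and no background flags, dim probes cannot be told from measured ones.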

Other observations

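The nearest protein-coding genes on either side of the 7 were looked up in the RefSeq annotation of GRCm38.p6. Of 14 such neighbours 1 had a named probe: Fap, which encodes a cell surface serine protease and lies beside Ifih1. Its log2 ratio was -0.97, -0.44 and 0.01 in null samples and -2.62, -1.41 and -2.44 in heterozygous samples, a log2 difference of 1.69 (SE 0.39). This difference did not pass the limma adjusted threshold. Fap was chosen after its value was seen, and a gene without a listed probe could not be read.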
